A study of Mus musculus with 10 samples.

Results

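The genes described here are the sodium-chloride cotransporter Slc12a3 and 6 genes that regulate it, the kinases Wnk1, Wnk4, Stk39 (SPAK) and Oxsr1 (OSR1) and the ubiquitin ligase genes Klhl3 and Cul3. They were chosen by name, as the rows of the expression table that the array's annotation assigns to one of these symbols alone. All 7 were measured, each by a single row, among 30142 genes in all. Osr1, an old synonym of Oxsr1, is today the symbol of another gene, and its row was not used.

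Whole kidneys of 5-week-old mice were compared on Affymetrix whole-transcript arrays, 1 array for each of 5 controls and 5 knockouts of Lkb1 (gene symbol Stk11). The LKB1 protein is a kinase upstream of AMPK and its relatives. The knockouts came from Lkb1flox/flox mice of mixed background crossed to KspCre mice, in which the Cdh16 promoter drives Cre in kidney tubules, and the protocol names them Lkb1Δtub. Controls were Lkb1flox/+ and Lkb1flox/flox littermates without KspCre, so they were pooled over these genotypes, and Cre and the loss of Lkb1 cannot be told apart. The titles and the condition label call the second group a knockdown of Stk11 and the controls wildtype, the strain label is C57Bl/6N for all 10 mice, and the text follows the growth protocol. The labels tie each array to its own mouse.

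Slc12a3 carries sodium and chloride from the urine into the cells of the distal convoluted tubule and is the target of thiazide diuretics. WNK kinases sense chloride and activate SPAK and OSR1, which phosphorylate the cotransporter and switch it on. A ligase built on the scaffold Cul3 with the adaptor Klhl3 marks WNK kinases for degradation, and mutations in the human counterparts of Wnk1, Wnk4, Klhl3 and Cul3 cause familial hyperkalaemic hypertension, whereas loss of the cotransporter causes Gitelman syndrome. SPAK and OSR1 also bind the scaffold MO25 (gene Cab39), which is a partner of LKB1 in its active complex. Arrays measure RNA only, so neither the amount nor the phosphorylation of these proteins was measured.

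The promoter stretches of Slc12a3, Wnk4 and Klhl3 are shown because the results turn on these genes: the cotransporter itself, the member that fell and the member nearest to the threshold. Each is the 250 bases before the start that the RefSeq promoter table (GRCm38.p6) uses, read 5′ to 3′ on the strand of the gene, with matches to the motifs searched in capitals. That start need not be the outermost one: 99 bases of the Slc12a3 stretch, 30 of the Wnk4 stretch and all 250 of the Klhl3 stretch lie inside the gene's annotated span.
Slc12a3, chr8:94328958-94329207, plus strand: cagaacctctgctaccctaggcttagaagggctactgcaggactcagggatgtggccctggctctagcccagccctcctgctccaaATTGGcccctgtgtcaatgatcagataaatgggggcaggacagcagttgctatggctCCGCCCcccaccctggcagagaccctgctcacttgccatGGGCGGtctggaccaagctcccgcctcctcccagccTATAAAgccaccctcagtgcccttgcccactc
Wnk4, chr11:101260317-101260566, plus strand: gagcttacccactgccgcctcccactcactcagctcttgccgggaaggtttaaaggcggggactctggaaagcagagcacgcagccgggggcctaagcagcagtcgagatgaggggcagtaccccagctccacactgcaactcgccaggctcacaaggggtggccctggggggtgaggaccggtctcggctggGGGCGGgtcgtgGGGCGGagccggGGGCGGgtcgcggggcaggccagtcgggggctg
Klhl3, chr13:58113648-58113897, minus strand: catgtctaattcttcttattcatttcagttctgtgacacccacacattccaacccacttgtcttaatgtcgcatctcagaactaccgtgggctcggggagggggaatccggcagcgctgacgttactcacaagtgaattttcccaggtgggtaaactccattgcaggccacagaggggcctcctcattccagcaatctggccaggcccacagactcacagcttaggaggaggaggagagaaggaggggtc

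All 7 genes had an entry among the 32851 promoters, and 5 motifs were searched on both strands. The stretch of Slc12a3 held TATAAA, the TATA box, ending 27 bases before the start, and it alone among the 7 genes did, against 12.4% of all promoters. It also held CCAAT (33.8% of all promoters) and 3 CG pairs, where the median promoter had 6. The stretch of Wnk4 had no TATAAA, a GC content of 70.0% against a median of 52.4%, 17 CG pairs and matches to GGGCGG, the GC box, within the 57 bases before the start. GGGCGG was found in 6 of the 7 genes, all but Klhl3, and in 32.7% of all promoters. Klhl3 matched none of the motifs. TGACGTCA, the full cAMP response element (1.55% of all promoters), was found only in Oxsr1 among the 7. CACGTG, the E-box (6.02% of all promoters), was in none of the 7 stretches. None of these motifs overlapped another in the printed stretches.

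Stk11, the targeted gene, was lower in every knockout (9.07 to 9.31) than in every control (9.40 to 9.48), with a log2 difference of -0.25 (SE 0.05, adjusted p = 0.00749 by limma). Deleted exons were not measured apart from the rest of the transcript. Values are log2 expression made by RMA, a method that subtracts background, equalises the arrays and combines a transcript's probes into a single number. Arrays carry no read counts, so their number limits the precision. The mean of 8 macrophage markers was higher in every knockout (7.16 to 7.88) than in every control (6.54 to 6.79), and that of 6 measured fibroblast markers likewise (8.87 to 9.75 against 7.93 to 8.25). All 8 and all 6 of these markers passed the test upward, beside 5.35% of all genes. In whole kidneys, fewer cells of a type and less RNA per cell cannot be told apart, and the part of these other cells in the results below was not tested.

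Of the 7 genes, Wnk4 was lower in the knockouts, and the other 6 did not pass the test at an adjusted p under 0.05. All 7 differences were negative, from -0.01 for Oxsr1 to -0.38 for Wnk4, with a median of -0.11, while the median over all 30142 genes was -0.03. Thus 1 of 7 passed downward and 0 upward, against a background of 2.67% of all genes called lower, 5.35% called higher and 8.03% called in either direction. Of all calls 66.7% were increases (1614 against 806 decreases), and 55.5% after quantile normalisation (1619 against 1299). Negative differences were common, with 18620 of the 30142 genes below 0. Every member was well above background: its control mean exceeded 97.1% to 99.7% of the 5222 negative control probe sets.

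Slc12a3 itself did not pass the test. It is on chromosome 8 at 94329109 to 94366222 (GRCm38). Controls 1 to 5 measured 12.45, 12.40, 12.33, 12.56 and 12.46, and knockouts 1 to 5 measured 12.17, 12.37, 12.17, 12.41 and 12.59. Knockouts 1 and 3 lay below every control, knockout 5 was the highest of the 10 kidneys, and the groups overlapped. The control mean was 12.44 ± 0.08 and the knockout mean 12.34 ± 0.18 (SD, n = 5 each), which differ by -0.10 in log2 units (SE 0.08, adjusted p = 0.482). The 95% interval of the knockout level ran from 83.1% to 105% of the control level. The difference was -0.05 without knockout 1 or without knockout 3, -0.16 without knockout 5 and -0.18 (SE 0.07, adjusted p = 0.165 by limma) after quantile normalisation, and it passed in none of these.

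Wnk4, the WNK kinase known mainly from the distal nephron, fell to 76.9% of its control level (95% interval 70.4% to 83.9%). The gene is on chromosome 11 at 101260537 to 101277409. The controls measured 9.20, 9.20, 9.10, 9.23 and 9.09 and the knockouts 8.68, 8.79, 8.71, 8.77 and 8.99. Every knockout was below every control, and the knockout nearest to the controls was number 5. The mean was 9.17 ± 0.06 in controls and 8.79 ± 0.12 in knockouts (SD, n = 5 each), which gives -0.38 in log2 units (SE 0.06, adjusted p = 0.00221), which put Wnk4 at rank 338 of all genes by p. Groups that do not overlap, with the knockouts lower, were found for 3.5% of all genes.

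Wnk1, the widely expressed WNK kinase (chromosome 6, 119923969 to 120038695), did not pass. Its controls measured 10.41, 10.54, 10.31, 10.47 and 10.40, and its knockouts 10.21, 10.37, 10.34, 10.34 and 10.33. Knockout 1 was the lowest of all, and the other 4 knockouts lay within the control range. The log2 difference was -0.11 (SE 0.05), with an unadjusted p of 0.0432 and an adjusted p of 0.200. The kidney makes a short form of Wnk1 without the kinase domain besides the full-length form, and a single value for the transcript cannot tell them apart.

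The kinases directly upstream of the cotransporter, SPAK and OSR1, did not pass. Stk39 (SPAK; chromosome 2, 68210445 to 68472108) measured 8.55, 8.78, 8.48, 8.57 and 8.35 in the controls and 8.46, 8.55, 8.43, 8.44 and 8.33 in the knockouts. Its controls spread over 0.43 log2 units, the widest control range among the 7 genes, and 4 of 5 knockouts lay inside it. The log2 difference was -0.11 (SE 0.07, adjusted p = 0.385). Oxsr1 (OSR1; chromosome 9, 119238432 to 119322684) measured 8.89, 8.95, 8.81, 8.84 and 8.86 in the controls and 8.82, 8.92, 8.76, 8.89 and 8.89 in the knockouts. These values lay over each other almost wholly, and the difference of -0.01 (SE 0.04, adjusted p = 0.867) had a 95% interval from 92.7% to 106% of the control level.

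Of the ligase genes, Klhl3, the adaptor that binds WNK kinases, lay near the threshold, and the scaffold Cul3 did not pass. Klhl3 is on chromosome 13 at 58000226 to 58123477. Its controls measured 9.16, 9.15, 9.03, 9.17 and 9.18, and its knockouts 8.69, 8.93, 8.63, 8.94 and 9.12. Knockouts 1 to 4 were below every control, and knockout 5 was within the control range. The knockout level was 82.9% of control (95% interval 73.3% to 93.7%), a log2 difference of -0.27 (SE 0.08, adjusted p = 0.0628). Without knockout 5 the difference was -0.33 and passed (adjusted p = 0.00895), and without each of the other kidneys in turn it did not pass. Mir874, whose hairpin lies inside the span of Klhl3 (58023125 to 58023200) and which was picked after its values were seen, had a row of its own. It measured 7.40 ± 0.15 in controls and 7.21 ± 0.14 in knockouts (SD, n = 5 each; log2 difference -0.19, adjusted p = 0.162). Cul3 (chromosome 1, 80264923 to 80340690), which serves many adaptors besides Klhl3, measured 10.58, 10.70, 10.67, 10.71 and 10.70 in the controls and 10.60, 10.58, 10.59, 10.65 and 10.61 in the knockouts. Control 1 lay among the knockouts, and the log2 difference was -0.07 (SE 0.04, adjusted p = 0.305).

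**Figure D1:**
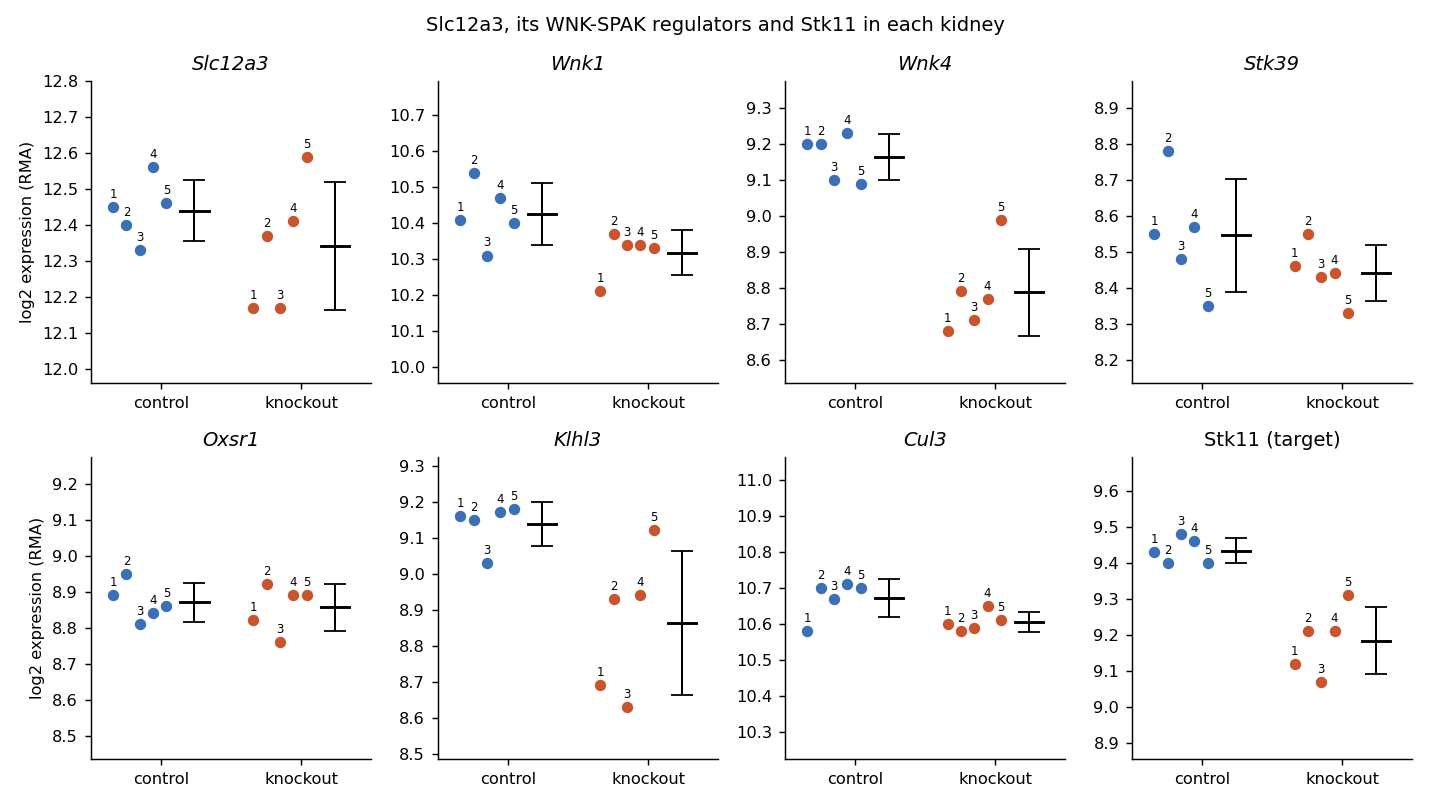
Log2 expression of the 7 genes and of Stk11 in each kidney; points are kidneys with their replicate numbers, the line is the mean and the bar the SD of 5 kidneys, and all panels span the same number of log2 units. Wnk4 and Stk11 have no overlap between groups, knockout 5 of Klhl3 (9.12) lies among the controls, and the Slc12a3 groups overlap.

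Whether paired genes changed unequally was tested on the difference of their log2 values within each kidney, over 4 pairs, with two-sided exact permutation tests of 5 against 5 kidneys, whose smallest possible p is 0.00794. The within-kidney values Wnk1 minus Wnk4 and Slc12a3 minus Slc12a1 were higher in the knockouts, each with an adjusted p of 0.0476 by the exact permutation test, and the other 2 pairs did not pass. The pairs were chosen with earlier results of these data known, and the adjustment over the 4 pairs does not cover that choice. The subtracted genes Wnk4 and Slc12a1 were each called lower on their own. These within-kidney values compare changes and not levels, since array signals of different genes are not on one scale.

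Wnk1 minus Wnk4 was 1.21, 1.34, 1.21, 1.24 and 1.31 in the controls and 1.53, 1.58, 1.63, 1.57 and 1.34 in the knockouts. Only knockout 5 was not above every control. The means differed by 0.27 (SE 0.06; exact p = 0.0159, adjusted p = 0.0476 over the 4 pairs). Leaving out any kidney but control 5 ended the call (adjusted p up to 0.0952), with differences from 0.24 to 0.32. With 4 against 5 kidneys the smallest exact p is 0.0159, which adjusts to 0.0635 over the 4 pairs unless another pair is as low, so the smaller design alone can end such a call.

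Slc12a3 was also set beside Slc12a1, the sodium-potassium-chloride cotransporter of the thick ascending limb, which SPAK and OSR1 phosphorylate as well. The value of Slc12a3 minus Slc12a1 was -0.13, -0.18, -0.31, -0.12 and 0.01 in the controls and -0.03, 0.11, -0.00, 0.09 and 0.38 in the knockouts. In 3 knockouts it was above every control, and the means differed by 0.25 (SE 0.09; exact p = 0.0238, adjusted p = 0.0476). Without any single kidney other than control 5 this call was lost too (adjusted p up to 0.0952; differences from 0.18 to 0.29). Slc12a1 was lower in every knockout (12.17 to 12.32) than in every control (12.45 to 12.68), a log2 difference of -0.35 (SE 0.05, adjusted p = 0.00156).

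Stk39 minus Oxsr1 differed by -0.09 (SE 0.07, 95% interval -0.25 to 0.07; exact p = 0.198, adjusted p = 0.198). This difference passed only without control 5 (-0.14, adjusted p = 0.0317), the control lowest in Stk39. Klhl3 minus Cul3 differed by -0.20 (SE 0.09, 95% interval -0.42 to 0.01; exact p = 0.0794, adjusted p = 0.106), with 3 knockouts below every control.

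**Figure D2:**
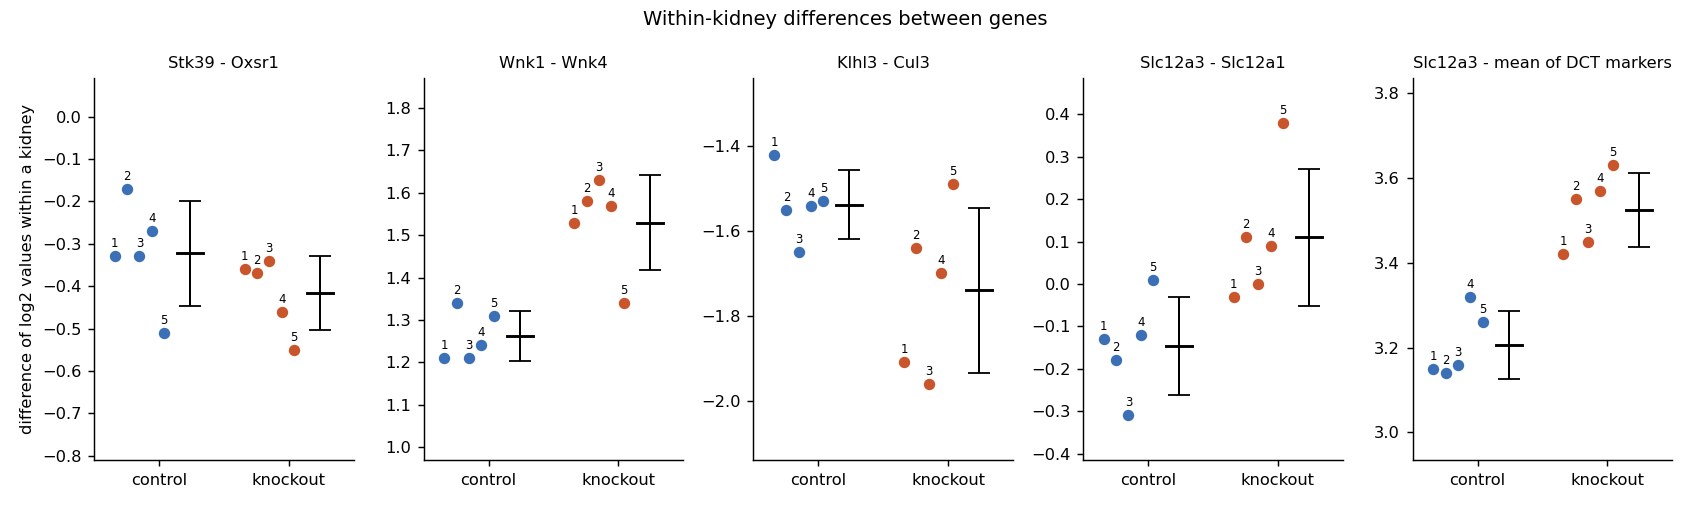
Difference of log2 values between paired genes within each kidney, and Slc12a3 minus the mean of 8 distal convoluted tubule (DCT) markers; points are kidneys with replicate numbers, with the mean and SD of 5 beside them. Wnk1 minus Wnk4 is higher in 4 knockouts than in all controls, and Slc12a3 minus the DCT marker mean in all 5.

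Of 18 measured partners of the WNK, SPAK and ligase proteins, 1 fell (5.56%), 0 rose and 17 did not pass, beside 2.67% of all genes called lower and 5.35% called higher. Their median log2 difference was -0.01. Wnk3, another WNK kinase on this list, had a control mean of 4.17, below the medians of the negative control probe sets (5.10 to 5.37 over the arrays). The gene that fell was Ppp1r1a, an inhibitor of protein phosphatase 1 that is abundant in the distal nephron. It measured 9.68, 9.75, 9.76, 9.87 and 9.61 in the controls and 9.26, 9.42, 9.19, 9.51 and 9.36 in the knockouts. No knockout reached a control value, and the log2 difference was -0.38 (SE 0.06, adjusted p = 0.00384). Cab39, the MO25 scaffold shared with LKB1, differed by -0.00 (SE 0.04), and its relative Cab39l by -0.16 (SE 0.06, adjusted p = 0.109). Sgk1, an aldosterone-induced kinase, had a wide spread and differed by 0.32 (SE 0.18, adjusted p = 0.318). Nedd8 (0.14, SE 0.05, adjusted p = 0.0792 by limma) and Nedd4l (0.16, SE 0.06, adjusted p = 0.122 by limma) were higher but did not pass.

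Among 7 measured cation-chloride cotransporters of the Slc12 family other than Slc12a3, 2 fell, 0 rose and 5 did not pass. Of all genes, 2.67% were called lower and 5.35% higher. Beside Slc12a1, the potassium-chloride cotransporter Slc12a7 fell, from 9.71 ± 0.07 to 9.37 ± 0.16 (SD, n = 5 each; log2 difference -0.34, SE 0.07, adjusted p = 0.0109). The median of these 7 genes was -0.08. Of 5 listed basolateral channel genes, which set the potential and chloride of distal tubule cells, only Kcnj10, Kcnj16 and Bsnd were measured. Of these 3, 2 fell, again beside 2.67% of all genes. Kcnj10, the potassium channel Kir4.1 of the distal convoluted tubule, measured 8.64, 8.72, 8.51, 8.64 and 8.55 in the controls and 8.06, 8.20, 7.88, 8.23 and 8.41 in the knockouts. Its groups did not overlap, and the log2 difference was -0.45 (SE 0.08, adjusted p = 0.00608). Bsnd, which encodes barttin, differed by -0.50 (SE 0.09, adjusted p = 0.00469). Kcnj16, which encodes a partner subunit of Kir4.1, differed by 0.01 (SE 0.05, adjusted p = 0.904).

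Of 5 measured hormone receptor and steroid enzyme genes, 1 fell and 4 did not pass, beside 2.67% of all genes called lower. It was Nr3c2, the mineralocorticoid receptor, from 8.19 ± 0.13 to 7.94 ± 0.10 (SD, n = 5 each; log2 difference -0.25, SE 0.07, adjusted p = 0.0380). The call on Nr3c2 was lost when any one of controls 3, 4 and 5 or knockouts 1, 3 and 4 was left out, with adjusted p up to 0.0942. Hsd11b2, the enzyme that keeps glucocorticoids off that receptor, differed by 0.07 (SE 0.06, adjusted p = 0.511).

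**Figure D3:**
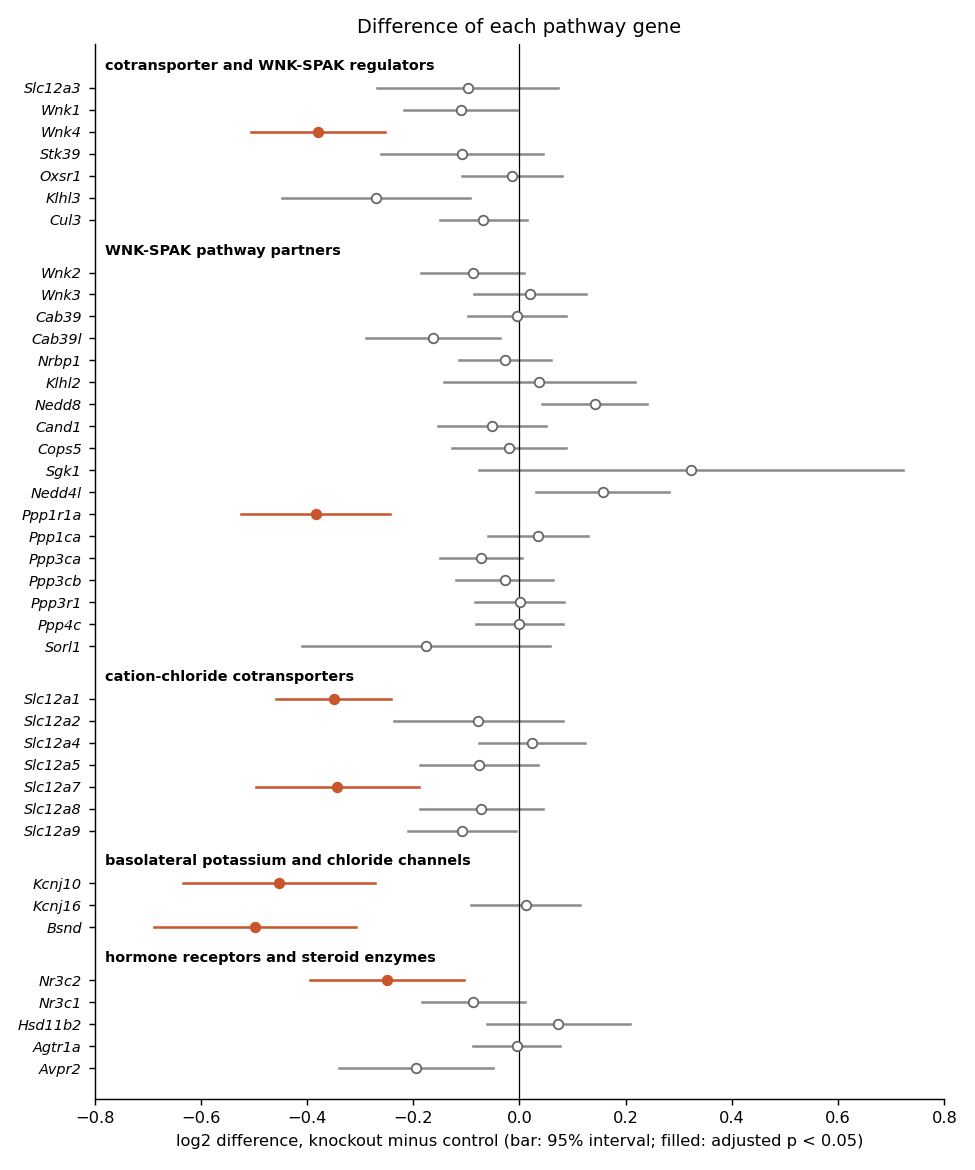
Log2 difference of each measured pathway gene, knockout minus control, with its 95% interval; filled points passed at an adjusted p under 0.05. Wnk4 (-0.38), Ppp1r1a (-0.38), Slc12a1 (-0.35), Slc12a7 (-0.34), Kcnj10 (-0.45), Bsnd (-0.50) and Nr3c2 (-0.25) are filled, and most others cross 0.

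Slc12a3 did not pass, while 4 of 8 markers of its own segment fell, beside 2.67% of all genes called lower. Among these 8 distal convoluted tubule markers there were 0 rises, and the median log2 difference was -0.29. The genes that fell were the growth factor precursor Egf (-0.96, SE 0.09), the monocarboxylate transporter Slc16a7 (-0.82, SE 0.07), the calcium-binding parvalbumin Pvalb (-0.65, SE 0.08) and the magnesium channel Trpm6 (-0.37, SE 0.10, adjusted p = 0.0449). Trpm6 no longer passed when any one of 8 kidneys was left out, all but control 3 and control 5. Tmem52b, another gene of the segment, differed by -0.07 (SE 0.09, adjusted p = 0.659), close to Slc12a3. The remaining markers, which did not pass either, were Sall3 (-0.12), Emx1 (-0.14) and Cnnm2 (-0.21), with adjusted p of 0.175, 0.0962 and 0.0784 by limma. After quantile normalisation Emx1 and Cnnm2 were called lower too, which made 6 of 8.

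The value of Slc12a3 minus the mean of these 8 markers was 3.15, 3.14, 3.16, 3.32 and 3.26 in the controls and 3.42, 3.55, 3.45, 3.57 and 3.63 in the knockouts. Every knockout was above every control. The means differed by 0.32 (SE 0.05, two-sided exact permutation p = 0.00794, the smallest this design allows). This value depends on which markers are averaged, and earlier results of these data had already named Egf, Slc16a7 and Pvalb as lower. Without Egf, which the thick ascending limb also makes, it was 0.24 (exact p = 0.00794), and without Egf, Slc16a7 and Pvalb it was 0.08 (exact p = 0.270).

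The neighbouring segments also had lower values. The counts that follow stand beside 2.67% of all genes called lower and 5.35% called higher. Of 7 thick ascending limb markers, 6 fell and 1 rose, with a median of -0.45. Those with the largest falls were the prostaglandin receptor Ptger3 (-0.86), the calcium-sensing receptor Casr (-0.62), the claudin Cldn10 (-0.50) and uromodulin, Umod (-0.45), whereas Cldn16, a claudin of magnesium reabsorption, rose by 0.45 (SE 0.06, adjusted p = 7.39e-04). Among the 8 connecting tubule markers there were 4 falls and 0 rises, with a median of -0.29. The genes that fell were calbindin, Calb1 (-0.54), the sodium-calcium exchanger Slc8a1 (-0.53), klotho, Kl (-0.47) and tissue kallikrein, Klk1 (-0.31). Of the intercalated cell markers 5 of 6 fell (median -0.64), and of the proximal tubule markers 2 of 8 (median -0.13).

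**Figure D4:**
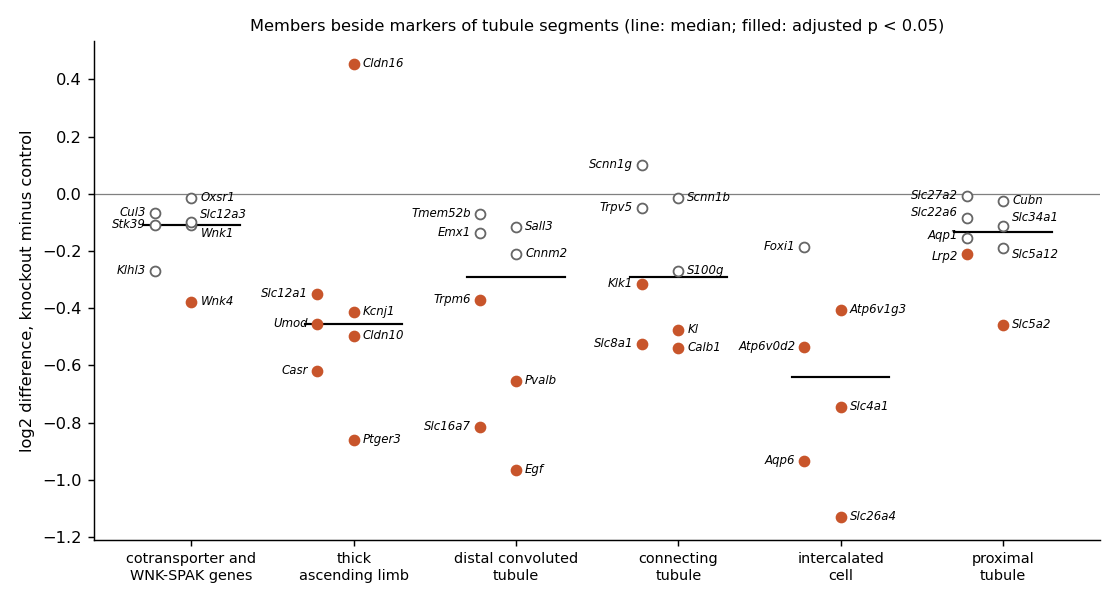
Log2 difference, knockout minus control, of the 7 genes beside markers of tubule segments; each point is a gene, filled where it passed at an adjusted p under 0.05, and the line is the median of the column. The median is -0.11 for the 7 genes, -0.45 for the thick ascending limb, -0.29 for the distal convoluted tubule and -0.64 for intercalated cells.

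The 5 knockouts differed among themselves in the same way for several of these genes. Knockout 5 had the highest value of the group for Slc12a3, Wnk4, Klhl3 and Stk11, and knockouts 1 and 3 had the lowest pair of values for all 4 genes. For Slc12a3 this was 12.17 in knockouts 1 and 3 and 12.59 in knockout 5. For Stk11 it was 9.12, 9.07 and 9.31 in knockouts 1, 3 and 5. The mean of the distal convoluted tubule markers had the same extremes (8.75, 8.72 and 8.96). So did the means of the thick ascending limb, connecting tubule and intercalated cell markers and of the basolateral channel genes. The proximal tubule mean was likewise highest in knockout 5 and lowest in knockout 3. The means of the pathway partners, the other Slc12 cotransporters and the hormone genes were highest in other knockouts. Knockout 5 also had the lowest mean of the macrophage markers (7.16, with 7.80 and 7.88 in knockouts 1 and 3) and of the fibroblast markers. The fibroblast means were 9.43, 9.68, 9.75, 8.94 and 8.87 in knockouts 1 to 5, so knockout 2 was the second highest there. Stk39, Oxsr1, Wnk1 and Cul3 did not share this order: the highest knockout was number 2 for Stk39, Oxsr1 and Wnk1 and number 4 for Cul3. With 5 kidneys no relation between these measures was tested.

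**Figure D5:**
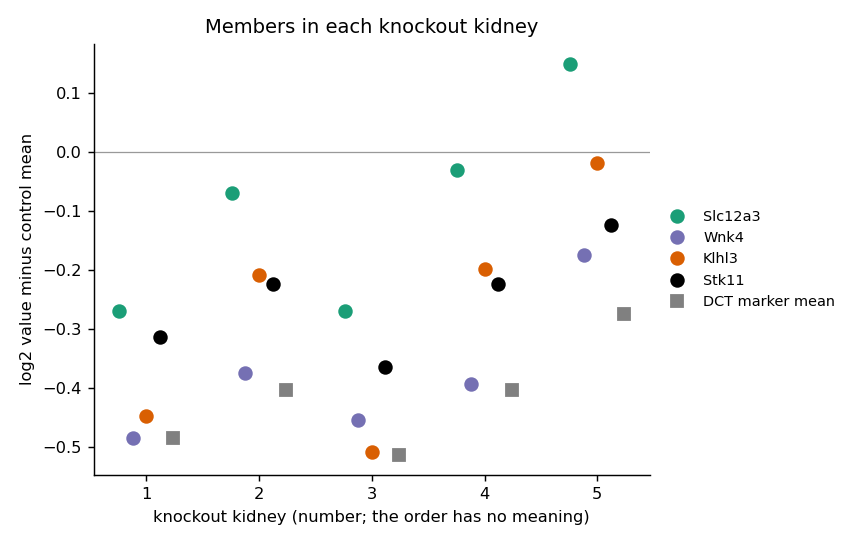
Log2 value in each knockout kidney minus the control mean, for Slc12a3, Wnk4, Klhl3, Stk11 and the mean of the distal convoluted tubule (DCT) markers; kidneys are named by number and have no order. All series are highest in knockout 5, where Slc12a3 (12.59) lies above its control mean (12.44), and lowest in knockouts 1 and 3.

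Likeness of pattern was measured as the root mean square difference in log2 value over the 10 kidneys, after each gene was centred on its own mean, against 17723 genes. The closest to Slc12a3 were Slc35f2 (0.03), Creg1 (0.03) and Tbp (0.05), none of which passed the test. The closest to Wnk4 were Tbc1d32 (0.05), Ablim3 (0.05) and Papss1 (0.06), all lower in the knockouts, by -0.32, -0.34 and -0.38. Among the members, Klhl3 was closest both to Slc12a3 (0.09) and to Wnk4 (0.10).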

How the data were processed

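The deposited table holds log2 expression values for 65770 transcript clusters and for other rows, among them the control probe sets. The authors made these values with RMA from 10 arrays of whole-kidney RNA (500 ng each), with the build mm10, per the submitters' processing notes. Versions and filters were not given in the sources used here. The log2 scale was read from the values (array medians 5.35 to 5.42).

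Of 72688 rows, 30604 had a single gene symbol in the platform annotation (symbols updated through Entrez identifiers for 827), and rows of a gene were averaged. Rows without exactly 1 symbol were not used. Positions and promoters are from RefSeq (GRCm38.p6).

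Knockouts and controls were compared with limma 3.58.1 in R 4.3.3 (lmFit, eBayes with trend, no covariate, two-sided, Benjamini-Hochberg over all 30142 genes, threshold 0.05). Pairs of genes were tested with exact permutation tests (scipy 1.17.1). The fit was tested on simulated data. Alternatives were other scalings, a filter on dim genes, other row rules, eBayes settings, array weights, the replicate number as a block, and leaving out each kidney.

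The members, lists and pairs were chosen with earlier results of these data known. All members and Stk11 were named; from 7 lists, at most 5 genes that passed, by size of difference, and for likeness the 3 closest genes. Cab39, Cab39l, Sgk1, Nedd8, Nedd4l, Kcnj16, Hsd11b2, Tmem52b, Sall3, Emx1, Cnnm2, Mir874, Wnk3, Slc12a8 and Avpr2 were picked after their values were seen. Listed genes without a row of their own were not analysed here.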

Additional observations from a re-analysis of the deposited data

Results flagged for a closer look

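Values of 1 kidney stood far from the other 4 of its group in 2 of the 64 groups examined, where chance alone gives about 1 in 20. Wnk1 in knockout 1 measured 10.21, with the nearest other knockout at 10.33. Klhl3 in control 3 measured 9.03, with the nearest other control at 9.15.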

How the results depend on the processing

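The Wnk4 fall passed under all 19 alternatives, and Slc12a3, Wnk1, Stk39, Oxsr1 and Cul3 passed under none of them. The count of members called was 1 to 2 over the fits that left out a kidney, and it was 2 after quantile normalisation, without dim genes, with array weights and with the replicate number as a block, each time through Klhl3. Klhl3 then differed by -0.30 (adjusted p = 0.0274), -0.27 (0.0486, with 19510 genes tested), -0.28 (0.0342) and -0.27 (0.0306). Same-numbered kidneys deviated together with correlations of 0.25, 0.31, 0.10, -0.08 and 0.19, and 3 of 5 controls and 4 of 5 knockouts correlated best with their own number. Since 1 correlation was below 0, the numbers were not taken to pair the mice. With the replicate number as a block, an exact permutation test that flips signs within pairs left 0.27 for Wnk1 minus Wnk4 (adjusted p = 0.0833), 0.25 for Slc12a3 minus Slc12a1 (0.0833) and 0.32 for Slc12a3 minus its segment's markers (p = 0.0625, the smallest that 5 pairs allow). Stk39 minus Oxsr1 (-0.09) also reached that smallest p (adjusted p = 0.0833). No difference can pass that test with 5 pairs of kidneys. The hormone gene called under the block was Avpr2 and not Nr3c2.

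Without 1 kidney, all genes past the threshold ranged from 1526 to 3412 (lowest without knockout 2, and below the 2420 of the full set by over 1.5 times also without control 3 or knockout 3), pathway partners from 1 to 2 and hormone genes from 0 to 1. Over those fits, Wnk1 minus Wnk4 ranged from 0.24 to 0.32, Slc12a3 minus Slc12a1 from 0.18 to 0.29, and Stk39 minus Oxsr1 from -0.14 to -0.055. Pathway partners called were 2 after quantile normalisation, with Cab39l added as lower, and 2 with array weights, with Nedd4l added as higher. Nedd4l was also the partner added without control 2. Hormone genes called were 0 after median centring, where Nr3c2 had an adjusted p of 0.0709 (0.0531 with the block). Trpm6 had an adjusted p of 0.0649 after median centring, and it also just missed the threshold with array weights. Slc12a3 minus its segment's markers was 0.08 without Egf, Slc16a7 and Pvalb, a choice made after seeing the data. The causes were not tested. Wnk3 and Slc12a8 (control means 4.17 and 5.26) lay within or below the range of the negative control medians, 5.10 to 5.37.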
